A study of Homo sapiens with 6 samples.

Results

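UHRF1's tandem tudor domain (TTD) bound 31569 regions in chromatin isolated from HepG2 cells. Of these, 494 were intergenic and lay over the transcription start site (TSS) of a long non-coding RNA (lncRNA). A TTD peak was taken as intergenic when it overlapped no protein-coding gene record of GENCODE release 44 and when its edge was more than 2500 bp from every protein-coding TSS. By this rule 13594 peaks were intergenic, and 494 of these contained the TSS of at least 1 lncRNA gene record. This is 3.63% of the intergenic peaks (95% Wilson interval 3.33 to 3.96) and 1.56% of all TTD peaks (1.43 to 1.71). The 494 peaks covered 2.61 Mb and held 520 lncRNA TSSs, with 1 TSS in 470 peaks, 2 in 22 peaks and 3 in 2 peaks.

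The peaks came from CIDOP, in which a GST-tagged reading domain replaces the antibody of a ChIP experiment. The purified domain was incubated with mononucleosomes isolated from the cells. Where the cells' own UHRF1 bound was therefore not measured. The series comprised 6 libraries from untreated HepG2, a cell line established from a human liver tumour. TTD CIDOP was done in 2 replicates, as were the H3K9me2 ChIP and the input. These 3 groups share the cells and differ in the pulldown, and the values below come from the TTD CIDOP. Both TTD replicates were averaged before peaks were called, so the single peak list carries no error between replicates, no score for a peak and no read depth. The Wilson intervals therefore cover counting error only, and differences between sets of peaks are descriptions that were not tested.

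UHRF1 helps to maintain DNA methylation after replication, and its TTD reads the tail of histone H3 methylated at lysine 9. lncRNAs are transcribed like messenger RNAs but encode no known protein, and many are made in few tissues, the liver among them. An annotated lncRNA TSS is the 5′ end of a gene record, and transcription from it in these cells was not measured here.

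The sequences at 6 of these TSSs are shown first, for 4 lncRNAs of the hepatic and general lists described below, the widest peak and the TSS with the highest CpG content. Each run is 150 bases of hg38 in the direction of transcription, 100 bases upstream of the TSS in lower case and the first 50 bases of the gene record in capitals. They were read at chr5:95838145-95838294 (plus strand) for LINC01554 and chr6:106788099-106788248 (minus) for LINC02532. For LUCAT1 the window was chr5:91314498-91314647 (minus), for LINC01234 chr12:113773677-113773826 (minus), for LINC01173 chr2:234682568-234682717 (plus) and for LINC00471 chr2:231514347-231514496 (minus).
LINC01554: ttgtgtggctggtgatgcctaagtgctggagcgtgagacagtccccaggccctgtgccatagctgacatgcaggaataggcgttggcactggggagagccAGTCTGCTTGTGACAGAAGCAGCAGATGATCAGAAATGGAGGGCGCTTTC
LINC02532: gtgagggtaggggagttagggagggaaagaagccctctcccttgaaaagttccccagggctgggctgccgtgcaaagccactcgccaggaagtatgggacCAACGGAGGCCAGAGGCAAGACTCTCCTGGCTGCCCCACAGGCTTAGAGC
LUCAT1: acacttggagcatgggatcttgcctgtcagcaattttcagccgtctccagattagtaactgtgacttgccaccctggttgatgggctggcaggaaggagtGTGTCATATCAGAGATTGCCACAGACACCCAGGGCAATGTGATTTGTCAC
LINC01234: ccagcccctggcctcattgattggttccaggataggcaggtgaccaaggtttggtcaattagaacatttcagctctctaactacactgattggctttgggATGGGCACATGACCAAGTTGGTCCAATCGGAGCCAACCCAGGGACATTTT
LINC01173: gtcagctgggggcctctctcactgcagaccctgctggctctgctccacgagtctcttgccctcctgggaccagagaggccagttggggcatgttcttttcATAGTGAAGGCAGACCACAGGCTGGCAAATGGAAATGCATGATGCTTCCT
LINC00471: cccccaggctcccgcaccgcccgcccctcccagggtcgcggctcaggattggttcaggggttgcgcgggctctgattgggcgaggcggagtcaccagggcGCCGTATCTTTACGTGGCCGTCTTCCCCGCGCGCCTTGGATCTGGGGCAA
The first 5 runs held between 1 and 3 CpG dinucleotides each, and the run of LINC00471 held 16.

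Of 24 lncRNAs listed for their known expression in liver, 23 were in the annotation and 18 of them had an intergenic TSS. Of these 18 TSSs, 4 lay in a TTD peak, those of LINC01554, LINC02499, LINC02532 and LINC02027 (22.2%, 9.0 to 45.2). Of 31 widely studied lncRNAs of other tissues and tumours, 28 were annotated and 19 were intergenic, and 2 of these, LUCAT1 and LINC01234, had the TSS in a peak (10.5%, 2.94 to 31.4). Over all intergenic lncRNA genes the share was 5.65% (558 of 9873 TSSs, 5.21 to 6.12). The intervals of both lists are wide, and that of the general list includes this background. Both lists were chosen with earlier results of these data known, so their shares are descriptions only.

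LINC01554, a liver-rich lncRNA on chromosome 5, had its TSS in a peak of 6710 bp (chr5:95836841-95843550) that extended 5305 bp into the gene and 1404 bp upstream. There were 7 TTD peaks within 50 kb of this TSS, 2 of them in the gene, and peaks covered 30.9% of the gene. LINC02499 lies on chromosome 4 beside AFM, which encodes the plasma protein afamin, in the cluster of albumin genes. Its peak (4210 bp) lay mostly upstream, with 3722 bp before the TSS and 487 bp after it, and 5 peaks were listed within 50 kb.

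LINC02532 on chromosome 6 had a peak of 10880 bp (chr6:106780571-106791450), of which 69.6% was downstream of the TSS, and 5 peaks lay in the gene. The peak of LINC02027 on chromosome 3 was of like width, 10380 bp, but no other TTD peak lay within 50 kb. Its nearest protein-coding TSS, that of the glycogen branching enzyme gene GBE1, was 761515 bp away. Thus the 4 liver lncRNAs differed in their surroundings, from an isolated peak to a row of 7.

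LUCAT1, a stress-induced lncRNA first described in lung cancer, had a peak of 3620 bp (chr5:91312621-91316240) with the TSS near its middle, 53.2% of the width being downstream. LINC01234, known from several tumours, had a peak of 4190 bp (chr12:113770031-113774220), which reached 3695 bp into the gene. Within 50 kb of either TSS 2 peaks were listed, and peaks covered 3.94% of LUCAT1 and 1.95% of LINC01234.

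**Figure D1:**
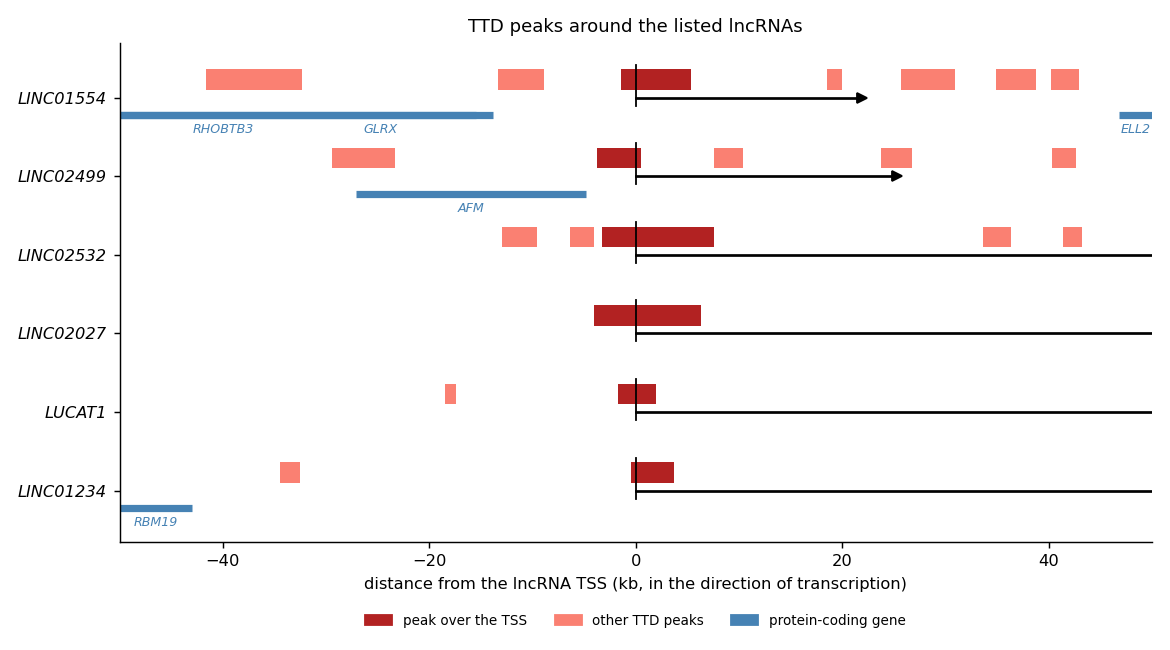
TTD peaks (red boxes, dark where over the TSS) around the TSSs of the 6 listed lncRNAs, plotted by distance in kb in the direction of transcription. Black lines are the lncRNA genes, running on where they reach the edge without an arrowhead, and blue bars are protein-coding genes; 7 peaks lie within 50 kb at LINC01554 and 1 at LINC02027.

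Other listed lncRNAs had a TTD peak close to the TSS but not over it, and the examples given here were picked after their values were seen. The nearest peak was 59 bp from the TSS of LINC00844 and 63 bp from that of HULC, a lncRNA named for its high level in liver cancer. The HULC record spans chr6:8435568-9294133 and is not intergenic, and the distance is to the 5′ end of this long record. For LINC00511 the distance was 272 bp, for LINC01348 600 bp and for MIR122HG, the host gene of the liver microRNA miR-122, 3078 bp. With the 6 TSSs in peaks included, 14 of the 23 hepatic (60.9%, 40.8 to 77.8) and 8 of the 28 general lncRNAs (28.6%, 15.3 to 47.1) had a TTD peak within 5 kb. Over all lncRNA TSSs this share was 18.2% (17.6 to 18.7), which lies in the interval of the general list. The limit on how the lists were chosen holds here as well. The 4 listed lncRNAs farthest from a TTD peak were NEAT1 at 397124 bp, CYTOR at 360411 bp, the hepatic LINC01370 at 354545 bp and MALAT1 at 343041 bp. Other hepatic lncRNAs were far as well, F11-AS1 at 125084 and MIR194-2HG at 91806 bp.

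The peaks over lncRNA TSSs were wide. Their median width was 3700 bp (95% interval of the median 3410 to 4100, quartiles 2270 and 6500, range 440 to 31750), against 2300 bp for the other 13100 intergenic peaks and 2840 bp for the 561 peaks over a protein-coding TSS. They were wider than the other intergenic peaks, by the median, on 23 of 24 chromosomes. A width of at least 10000 bp was found for 66 of the 494 peaks (13.4%, 10.6 to 16.6) and for 2.41% of the other intergenic peaks (2.16 to 2.69).

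A wide peak holds a TSS more easily than a narrow one, and width classes show this. Of the intergenic peaks under 1000 bp, 1.24% held a lncRNA TSS (0.821 to 1.87), and this share rose through each class to 12.7% of the 699 peaks of at least 8000 bp (10.5 to 15.4). Counted per Mb of peak, narrow peaks held more TSSs than wide ones. There were 18.6 lncRNA TSSs per Mb in intergenic peaks under 1000 bp (95% Poisson interval 11.8 to 27.8), 12.7 in peaks of 2000 to 4000 bp (10.9 to 14.7) and 11.5 in peaks of at least 8000 bp (9.30 to 14). The intervals of these densities overlap, and each lies above the 6.0 TSSs per Mb of intergenic sequence outside peaks (5.88 to 6.12).

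**Figure D2:**
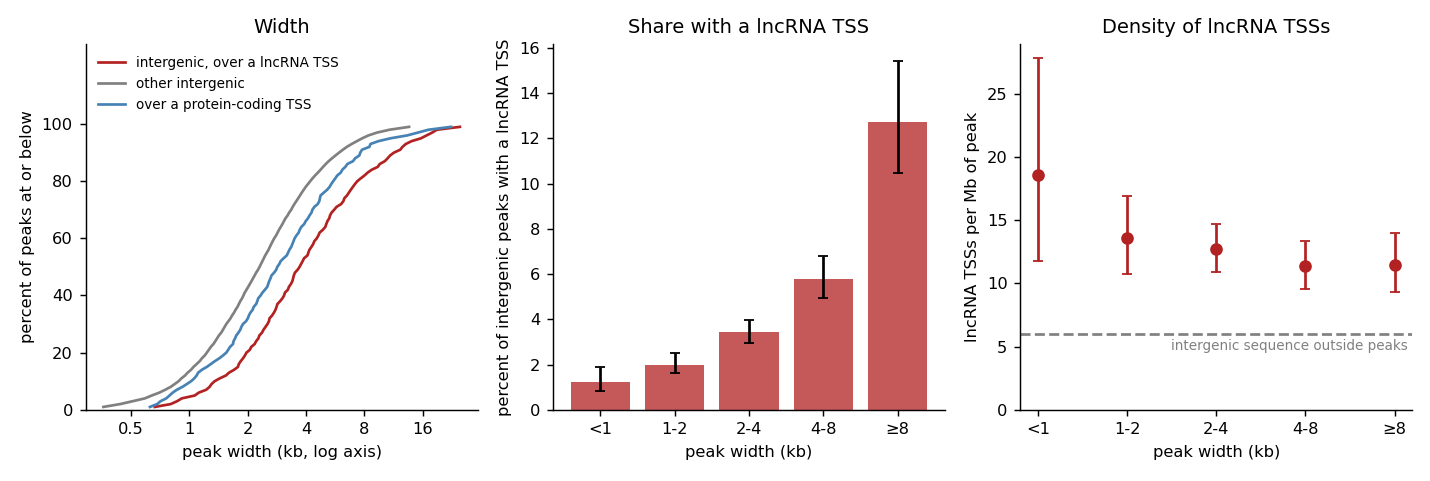
Left, percent of peaks at or below each width (log axis) for the 494 intergenic peaks over a lncRNA TSS, the other intergenic peaks and the peaks over a protein-coding TSS. Middle and right, percent of intergenic peaks with a lncRNA TSS (bars, 95% Wilson intervals) and lncRNA TSSs per Mb of peak (points, 95% Poisson intervals) by width class; the share rises from 1.24% to 12.7% and the density goes from 18.6 to 11.5, above the dashed line at 6.0.

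The widest peak spanned 31750 bp on chromosome 2 (chr2:234668361-234700110) and contained the TSS of LINC01173 near its middle, 14307 bp from the upstream edge. Peaks covered 77.9% of this gene. The next was a peak of 29160 bp on chromosome 6 over the TSS of LINC02539, 49524 bp from TNFAIP3, an inhibitor of NF-κB signalling. Here 24855 bp of the peak lay upstream of the TSS. A peak of 26770 bp on chromosome 14 lay almost wholly downstream, with 26572 bp after the TSS of ENSG00000257831 and 197 bp before it.

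The TSS of ENSG00000285800 was at the other end of its peak of 26580 bp on chromosome 16, with 25813 bp upstream, and the TSS of TOX3, a gene for an HMG-box protein, was 10079 bp from the peak. A peak of 26500 bp over ENSG00000235070 on chromosome 2 covered the whole gene, and its nearest protein-coding gene, the insulin receptor substrate gene IRS1, was 607240 bp away. A peak of 24720 bp over ENSG00000288791, also on chromosome 2, likewise covered the whole gene. So the TSS could be at either end of these wide peaks or deep inside them.

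The peak of LINC02331 on chromosome 14 (23200 bp) was 98671 bp from the TSS of BMP4, a gene for a signalling protein of the TGF-β family, and 6 TTD peaks lay in this lncRNA gene of 165744 bp. The peak of ENSG00000285557 (20950 bp) on chromosome 3 was 87224 bp from AGTR1, the angiotensin II receptor gene, and had 18633 bp upstream of the TSS. The gene of ENSG00000259187 on chromosome 15, 555 bp long, lay inside a peak of 20460 bp. The last of the 10 widest peaks (19330 bp) held 3 lncRNA TSSs on chromosome 2, those of LINC02583, ENSG00000284608 and ENSG00000253515, which are transcribed in the same direction from positions 46429190, 46429195 and 46429229.

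In 1 other peak 3 lncRNA TSSs were found. It spanned 3290 bp on chromosome 13 and held LINC00395 and, on the opposite strand, ENSG00000285764 and ENSG00000290963. Next by width, with 2 TSSs, came a peak of 18390 bp on chromosome 8 (ENSG00000253824 and ENSG00000253666), 1 of 12870 bp on chromosome 16 (ENSG00000259899 and ENSG00000274834) and 1 of 10930 bp on chromosome 18. The last held LINC01909 and LIVAR, whose TSSs lie close together on opposite strands. A gene of the other strand starting within 1 kb upstream was found for 19 of the 520 lncRNA TSSs (3.65%, 2.35 to 5.64), and for 4.98% of the intergenic lncRNA TSSs outside peaks (4.56 to 5.44).

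Where in the peak a TSS lay was not used to choose the peaks. The median share of the peak downstream of the TSS was 49.8% (45.7 to 53.3), with a median of 1582 bp downstream and 1647 bp upstream. Of the 520 TSSs, 260 were nearer the upstream edge, that is 50.0% (45.7 to 54.3), so the peaks showed no side with respect to the direction of transcription. The TSSs were spread over the width, with 284 of 520 in the central 50% of the peak (54.6%, 50.3 to 58.8) and between 45 and 61 in each 10% of it. Of the TSSs, 77 lay within 250 bp of an edge (14.8%, 12 to 18.1). These edge zones made up 17.5% of the width of the peak on average over the 520 TSSs.

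The peaks over lncRNA TSSs had a median GC content of 44.7% (44.2 to 45.3), slightly above the 43.8% of the other intergenic peaks (43.6 to 43.8) and below the 45.7% of the peaks over a protein-coding TSS (44.9 to 46.4). The GC content was above that of the other intergenic peaks on 18 of 24 chromosomes. In the other intergenic peaks it fell through the width classes, from 45.9% under 1000 bp to 41.1% from 8000 bp. In the peaks over lncRNA TSSs it was 46.9% under 1000 bp, highest from 1000 to 2000 bp and 41.8% from 8000 bp. The gap was larger within the middle width classes. There the medians were 48.1% against 44.7% from 1000 to 2000 bp, 45.5% against 43.6% from 2000 to 4000 bp and 44.3% against 42.4% from 4000 to 8000 bp. Under 1000 bp and from 8000 bp the intervals overlap. CpG dinucleotides were depleted. The median ratio of observed to expected CpG was 0.202 (0.195 to 0.212), against 0.186 (0.185 to 0.188) in the other intergenic peaks and 0.236 (0.224 to 0.250) over protein-coding TSSs. This gap too depended on width. It was widest under 1000 bp, 0.338 (0.133 to 0.505, n = 22) against 0.189, with overlapping intervals, and at 8000 bp or more the order was reversed, 0.1767 against 0.1775. The intervals are apart from 2000 to 8000 bp only.

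In the 1 kb centred on the TSS, 21 of the 520 lncRNA TSSs were CpG-rich, with a GC content above 50% and a ratio above 0.6 (4.04%, 2.66 to 6.09). Of the intergenic lncRNA TSSs outside peaks, 10.97% were (10.4 to 11.6). Read the other way, 2.11% of 1044 CpG-rich intergenic lncRNA TSSs lay in a TTD peak (1.40 to 3.17), against 6.07% of the other intergenic lncRNA TSSs (5.59 to 6.59). Most lncRNA TSSs in peaks were therefore not CpG-rich, and CpG-rich lncRNA TSSs were seldom in peaks.

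The highest CpG ratio at a TSS was that of LINC00471 on chromosome 2, 1.01, in a peak of 840 bp. It was followed by ENSG00000289855 (0.912, peak of 1790 bp), ENSG00000243179 (0.897, 11200 bp) and ENSG00000288898 (0.769, 4640 bp), all on chromosome 2, and by THBS2-AS1 on chromosome 6 (0.759, 1230 bp). At the other end, no CpG was found in the 1 kb at the TSSs of LINC02513 on chromosome 4 (3440 bp) and of SMG1P7 on chromosome 16 (560 bp). The ratio was 0.0286 for ENSG00000238004 (9360 bp), 0.0344 for ENSG00000288551 (3570 bp) and 0.0454 for ENSG00000283265 (13080 bp). Peaks of many widths were thus found at both ends of the range, and 4 of the 5 most CpG-rich TSSs lay in peaks wider than 1000 bp. This count does not set them apart, since only 22 of all 494 peaks were under 1000 bp (4.45%, 2.96 to 6.65).

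**Figure D3:**
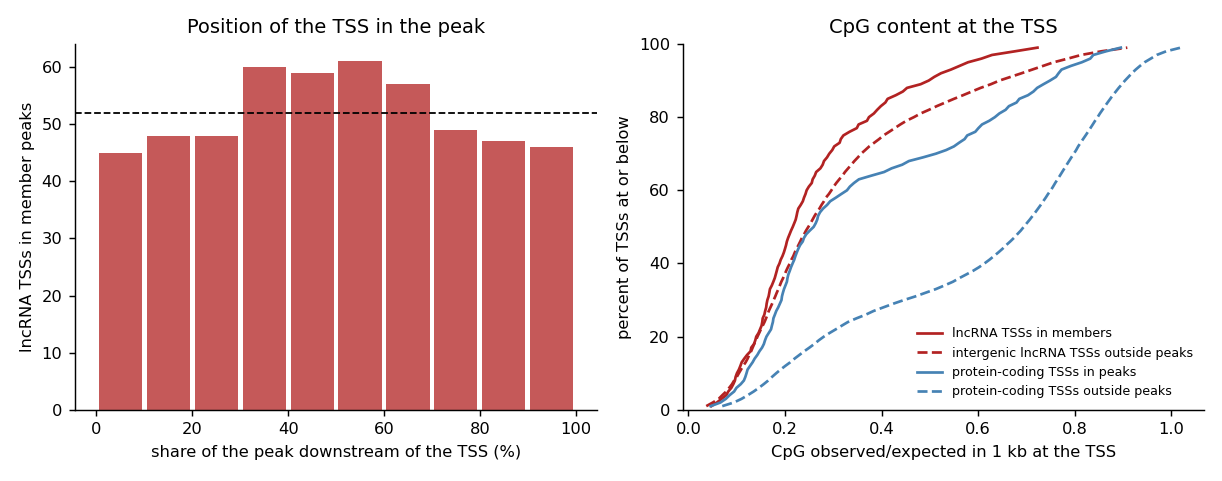
Left, number of the 520 lncRNA TSSs by the share of the peak downstream of the TSS, with the mean of the bars as a dashed line. Right, percent of TSSs at or below each CpG observed/expected ratio in the 1 kb at the TSS, for lncRNA (red) and protein-coding (blue) TSSs inside (solid) and outside (dashed) TTD peaks; the bars lie between 45 and 61, and TSSs in peaks reach high ratios less often.

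Without regard to the rule on peaks, the cover, that is the percent of sequence inside TTD peaks, was taken around all 9873 intergenic lncRNA TSSs. In the central 500 bp the mean cover was 5.72%, and at 1 to 2.5 kb on both sides it was 5.35%. The difference was +0.371 percentage points (SD 16.3, n = 9873 TSSs, 95% interval of the mean 0.0506 to 0.692). This interval treats the TSSs as independent, which neighbouring TSSs in the same peak are not. The small difference depended on the choices made: with the start of every lncRNA transcript it was 0.159 points, with an interval that includes 0 (-0.0328 to 0.351), and with a central 200 bp and flanks of 2 to 5 kb it was 0.981 points. The cover was highest not in the centre but at 0.25 to 1 kb (5.80%), and farther out it declined to 4.42% at 5 to 10 kb and 3.84% at 50 to 100 kb. At protein-coding TSSs of all CpG ratios together it was 3.31% in the centre, 4.91% at 0.25 to 1 kb and 5.83% at the flanks.

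At lncRNA TSSs with many CpG dinucleotides the centre had less cover than the flanks. At the 1044 CpG-rich intergenic lncRNA TSSs the cover was 2.40% in the centre and 5.15% at the flanks, a difference of -2.75 points (-3.73 to -1.77). In the quartile with the highest CpG ratio the cover was 3.81% in the centre and 4.76% at the flanks, a difference of -0.944 points (-1.61 to -0.275). In the quartile with the lowest ratio the cover was 6.45% in the centre and 5.66% at the flanks, a difference of +0.784 points (0.190 to 1.38). The change with the ratio was not steady, since quartile 2 had the highest central cover (7.25%) and the largest difference, +0.974 points (0.309 to 1.64), and quartile 3 had +0.669 points (0.0371 to 1.302). Protein-coding TSSs of the highest quartile of their own set had 0.965% in the centre and 5.56% at the flanks. Those of the lowest quartile had 7.07% in the centre and 6.39% at the flanks, a difference of +0.679 points (0.160 to 1.20). In the lowest quartile the centre thus exceeded the flanks in both sets. Quartiles of the 2 sets cover different CpG ratios, the highest starting at 0.400 for lncRNA and 0.819 for protein-coding TSSs.

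**Figure D4:**
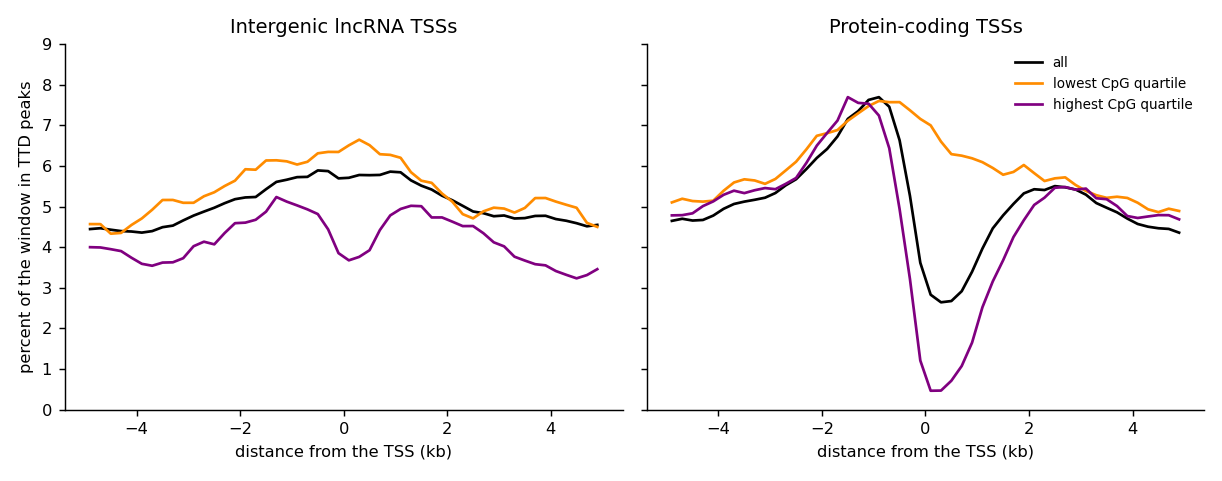
Mean percent of each 200 bp window inside TTD peaks against the distance from the TSS in kb, upstream to the left, for 9873 intergenic lncRNA TSSs and 20033 protein-coding TSSs. Black lines are all TSSs and coloured lines the lowest and highest quartile of CpG ratio; the central cover is 3.81% for the highest lncRNA quartile and 0.965% for the highest protein-coding quartile.

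Of all 18866 lncRNA TSSs, intergenic or not, 4.60% were in a TTD peak, and of 20033 protein-coding TSSs 2.94%, beside the 5.65% of intergenic lncRNA TSSs. Peaks took up 2.81% of the intergenic sequence, and the intergenic lncRNA TSSs were 2.07 times as dense inside peaks (12.4 per Mb, 11.4 to 13.5) as outside. This excess was not confined to the TSS. The cover was 4.42% at 5 to 10 kb from these TSSs and 3.84% at 50 to 100 kb, in windows not limited to intergenic sequence. The percent of lncRNA TSSs in peaks exceeded the percent of intergenic bases in peaks on 22 of 24 chromosomes. The exceptions were chromosome 17, with 3.89% of TSSs and 4.09% of bases, and chromosome 19, with 2 of 260 TSSs. On chromosome 20, 40 of 265 intergenic lncRNA TSSs were in a peak (15.1%, against 6.27% of bases), and on chromosome 6, 64 of 523 (12.2%, against 4.81%).

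Chromosomes 2, 14, 16, 17 and 20, taken as gained in HepG2 from general knowledge, held 169 of the 494 peaks (34.2%, 30.2 to 38.5), near the 30.8% of the other intergenic peaks (30.02 to 31.6). On these 5 chromosomes 8.65% of the intergenic lncRNA TSSs were in a peak (7.55 to 9.88), where peaks took up 4.95% of the intergenic sequence, against 2.34% elsewhere. On the other chromosomes 4.77% of the intergenic lncRNA TSSs were in a peak (4.32 to 5.27). The part of copy number in these shares was not tested.

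**Figure D5:**
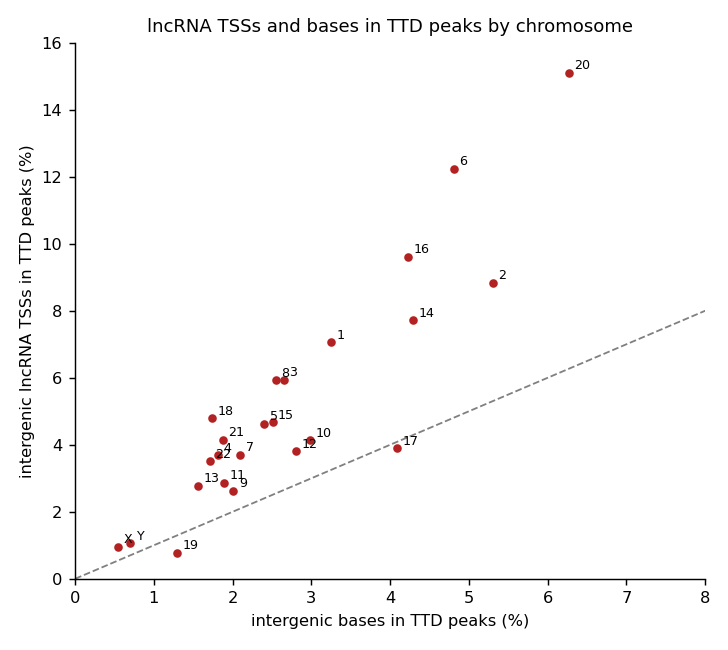
Percent of intergenic lncRNA TSSs in TTD peaks against percent of intergenic bases in TTD peaks, 1 point for each of 24 chromosomes, labelled by name. The dashed line marks equal percents; 22 chromosomes lie above it, with chromosomes 20 (15.1%) and 6 (12.2%) the highest, and 17 and 19 lie below.

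Beyond the limit set by the rule, the median distance to the nearest protein-coding TSS was 68784.5 bp (59728 to 77640), close to the 63019.5 bp of the other intergenic peaks (60938 to 65059). It was 92802.5 bp (88989 to 99222) for the 4212 of these inside a lncRNA gene but not over its TSS, and 51782 bp (49905 to 53820) for the 8888 outside lncRNA genes. Of the 494 peaks, 35% were more than 100 kb away (30.9 to 39.3), against 37.1% (36.3 to 38.0). The 494 peaks lay nearer to other TTD peaks. They were also wider, and this comparison was not made within width classes. The median gap to the next peak was 5720 bp (4510 to 6870), against 9000 bp (8610 to 9420), and the median number of other TTD peaks within 100 kb was 6 (5 to 7), against 4 (4 to 5). Intergenic peaks in a lncRNA gene but not over its TSS were in between, with a gap of 7690 bp (7060 to 8370) and 5 peaks (5 to 5), and those outside lncRNA genes had a gap of 9605 bp (9110 to 10160) and 4 peaks (4 to 4).

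Just inside the limit of 2500 bp were the peaks over ENSG00000287302, 2621 bp from the TSS of ZNF367, over LINC01022, 2668 bp from PTPRN2, and over IL1R1-AS1, 2676 bp from IL1RL2. Just outside it were those over LINC02924, 2498 bp from HES1, ENSG00000288022, 2354 bp from HEG1, and ENSG00000291262, 2314 bp from NPIPB4.

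The TSSs of 3 lists of liver genes and 2 other lists were also set against the peaks. A TTD peak lay over the TSS of 17 of 68 plasma protein genes (25%, 16.2 to 36.4) and 21 of 63 genes of hepatic metabolism (33.3%, 22.9 to 45.6). It was found for 2 of 38 hepatic transcription factors (5.26%, 1.46 to 17.3), 1 of 46 neuronal genes (2.17%, 0.385 to 11.3) and 0 of 36 blood genes. A count of 0 allows a share of up to 8.33% by 3 counts of the total, and up to 9.64% by the Wilson interval. These stand beside 2.94% of all protein-coding TSSs. The gene lists too were chosen with earlier results of these data known, so the shares are descriptions only.

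The 494 peaks had 422 different nearest protein-coding genes, few of them in these lists. A gene of the plasma protein list, which leaves out AFM, was nearest to 3 peaks (0.607%, 0.207 to 1.77), beside 0.489% of the other intergenic peaks. These were the peak of LINC02672 (7620 bp), 251127 bp from the mannose-binding lectin gene MBL2, that of SERPINA13P (6870 bp), 22557 bp from SERPINA3, which encodes antichymotrypsin, and that of ENSG00000236267 (1960 bp), 8804 bp from the apolipoprotein gene APOA4. Of the hepatic metabolism list, which leaves out AKR1D1, UGT2A3 and UGT2B11, 1 gene was nearest, AKR1C4. This gene encodes an aldo-keto reductase of steroid and bile acid metabolism. It was nearest to the peaks of ENSG00000231039 (7630 bp) and LINC02561 (2470 bp), at 35599 and 75679 bp (0.405% of the 494 peaks, against 0.702% of the other intergenic peaks).

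Listed hepatic transcription factors were nearest to 14 peaks (2.83%, 1.70 to 4.70), against 1.73% of the other intergenic peaks (1.52 to 1.96), and these intervals overlap. The 14 peaks belonged to 8 factors, and the 8 widest are described first. The widest was the peak of LINC02058 (18240 bp), 629132 bp from NR2F1, followed by that of LINC02490 (9870 bp), 237333 bp from ONECUT1, a homeobox factor of liver and bile duct development. A peak of 9550 bp over ENSG00000287175 was 20320 bp from KLF6. Near SOX9, a factor of bile duct and cartilage cells, lay the peaks of LINC02003 (8810 bp) and ENSG00000263680 (6360 bp), at 214271 and 304501 bp. The peak of ENSG00000259359 (7260 bp) was 148578 bp from NR2F2, that of ENSG00000262079 (5870 bp) 61171 bp from HLF, and that of ENSG00000288974 (5580 bp) 57935 bp from FOXA2, a pioneer factor of liver cells. The 6 narrower peaks lay 15731 to 260948 bp from their genes, 2 more near SOX9 (ROCR at 60790 and LINC01152 at 89460 bp), 1 near GATA6 (ENSG00000263588 at 81429 bp) and 1 more each near KLF6, FOXA2 and NR2F2. Genes of the neuronal list were nearest to 0 of 494 peaks, against 0.557% of the other intergenic peaks. This count of 0 allows up to 0.607% by 3 counts of the total and 0.772% by the Wilson interval. A gene of the blood list was nearest to 1 peak (0.202%, 0.0357 to 1.14), that of ENSG00000223881, 35787 bp from PTPRC, against 0.397% of the other intergenic peaks.

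The lncRNA genes of these peaks had a median length of 11087.5 bp (8847 to 13389) and a median of 3 exons in the canonical transcript, beside 9721 bp (9264 to 10210) and 3 exons for intergenic lncRNA genes with the TSS outside peaks. Annotation level 1 was given to 78 of the 520 genes (15.0%, 12.2 to 18.3) and to 10.9% of the others (10.3 to 11.5). The rule puts at least 1 peak in each of these genes, so their cover is a description. Peaks covered a median of 31.6% of the gene (26.7 to 37.9), and 87 of 520 genes were covered whole (16.7%, 13.8 to 20.2). Besides the peak over the TSS, 217 genes held a further TTD peak (41.7%, 37.6 to 46.0). Of the intergenic lncRNA genes with the TSS outside peaks, 16.6% held any peak (15.8 to 17.4).

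Among these 520 genes, the one with the most TTD peaks, named after its values were seen, was ENSG00000258077 on chromosome 12, with 36 peaks over 420814 bp and a cover of 44.6%. It was followed by LINC00607, with 21 peaks and 86.2% of its 237392 bp covered, and ENSG00000237525, with 18 peaks and 80.1% of 180763 bp. The last 2 genes overlap on opposite strands of chromosome 2, between FN1, the fibronectin gene, and MREG, so their peaks are partly the same. Genes with the TSS outside peaks reached like counts, with 37 in ENSG00000251314 and 34 in LINC00511.

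Another gene record, neither protein-coding nor lncRNA, overlapped 48 of the 494 peaks (9.72%, 7.41 to 12.6), against 6.17% of the other, narrower intergenic peaks (5.77 to 6.59). Within each of 4 width classes the intervals overlap, with 10.1% (5.41 to 18.1) and 8.52% (6.56 to 11.01) of the peaks of at least 8000 bp. Transcribed unprocessed pseudogenes were the most frequent, with 25 records in 25 peaks (5.06%, 3.45 to 7.36), against 1.21% (1.03 to 1.41), and the intervals overlap in the class from 2000 to 4000 bp alone. A microRNA gene was found in 5 peaks (1.01%, 0.433 to 2.35), against 0.115% (0.0694 to 0.189). Of these 5 peaks 4 were 2000 to 4000 bp wide. In 2 classes a count of 0 leaves the order undecided. From 4000 to 8000 bp there were 0 of 139 peaks (up to 2.16% by 3 counts of the total) against 7 of 2259 (0.310%). Under 2000 bp there were 0 of 100 (up to 3% likewise) against 2 of 5568 (0.0359%). Record types that lie together in the annotation were not separated. All 5 microRNA genes were matched to a mature sequence in the RefSeq table (GRCh38.p14), printed here because they show which small RNAs share a bound region with a lncRNA TSS. Capitals mark the seed, bases 2 to 8.
miR-3179 (chr16:14901559-14901580, plus): aGAAGGGGugaaauuuaaacgu
miR-2117 (chr17:43444856-43444876, plus): uGUUCUCUuugccaaggacag
miR-4437 (chr2:181305593-181305613, minus): uGGGCUCAggguacaaagguu
miR-587 (chr6:106784140-106784160, plus): uUUCCAUAggugaugagucac
miR-5707 (chr7:158591625-158591646, plus): aCGUUUGAaugcuguacaaggc
The 5 seeds differed. The host peaks were those of ENSG00000257264 (3110 bp), MIR2117HG (3490 bp), ENSG00000289389 (3850 bp), LINC02532 (10880 bp) and LINC01022 (3430 bp). In the peak of LINC02532 the microRNA gene lies on the strand opposite to the lncRNA.

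For motifs, windows from 250 bp upstream to 50 bp downstream of the TSS were searched on both strands. A TATA box (TATAAA) was found at 12.9% of the 520 lncRNA TSSs (10.3 to 16) and at 18.2% of the intergenic lncRNA TSSs outside peaks (17.4 to 19). The forkhead motif TGTTTNC was found at 28.1% (24.4 to 32.1) and 23.4% (22.6 to 24.3), and the C/EBP motif TTGCNNAA at 16.7% (13.8 to 20.2) and 13.3% (12.6 to 14). For the HNF1 motif GTTAAT the shares were 11.3% (8.90 to 14.4) and 9.66% (9.08 to 10.3), and for the HNF4 motif CAAAGTCCA 0.962% (0.411 to 2.23) and 0.408% (0.297 to 0.559). The median GC content of the windows was nearly equal, 47.7% and 47.0%. The intervals of the lncRNA sets do not overlap for the TATA box and the forkhead motif, and overlap for the other motifs. Protein-coding TSSs in peaks were set against all protein-coding TSSs, and the GC content of these windows differed, 48.7% and 60.3%. Every motif was more frequent in peaks. The TATA box was found at 18.0% (15.1 to 21.3) against 10.8% (10.4 to 11.2), and the forkhead motif at 26.5% (23.1 to 30.2) against 16%. For the C/EBP, HNF1 and HNF4 motifs the shares were 17.5% against 9.14%, 14.8% against 5.94% and 1.87% against 0.314%. The part of GC content in these differences was not tested. Such matches are descriptions of the letters and no evidence of binding.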

How the data were processed

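TTD CIDOP, H3K9me2 ChIP and input each comprised 2 HepG2 libraries. The authors trimmed reads (Trimmomatic 0.38), aligned them to hg38 (HISAT2 2.2.1), computed coverage in 10 bp bins (deepTools 3.3.2), averaged both TTD replicates, called broad peaks (MACS2 2.1.1), removed blacklisted regions and curated the list by hand. The deposited file gives the position of each peak and its width in bp, and no score. Depth per library is not given in the list, and the signals of separate libraries were not analysed here.

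All else was interval arithmetic against GENCODE release 44 and the hg38 sequence (Python 3.11.15, numpy 2.4.6, pandas 2.3.3, scipy 1.17.1, matplotlib 3.10.9), tested on simulated data. The TSS is the 5′ end of a gene record on the 24 chromosomes. CpG observed/expected is the CpG count times the length over the product of C and G counts. Intervals of medians come from order statistics. Genes are named by width, number of TSSs, CpG content, membership in lists, distance to the limit and microRNA records. The sequences at 2 listed TSSs and 1 neighbouring gene are not reported here. The members and lists were chosen with earlier results of these data known. The alternatives changed the distance limit, TSS set, peak list, overlap, chromosomes and windows.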

Additional observations from a re-analysis of the deposited data

How the results depend on the processing

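The 8 main values were recomputed under 9 alternatives, giving 63 values, of which 52 stayed within the interval of the main value (or, for the number of peaks, within 1.5 times of it) and 11 did not. The difference in cover, the only value that could change sign, did not. With the start of every lncRNA transcript the number of peaks was 768 instead of 494, and without chromosomes 2, 14, 16, 17 and 20 it was 325 and the share of intergenic lncRNA TSSs in a peak 4.77%. With peaks of at least the median width (2250 bp) that share was 4.40%, the median width 4740 bp and the median GC content 43.9%, since the narrower peaks were left out. With peaks less than 1 kb apart joined, the median width was 4140 bp. Counting a TSS within 500 bp of a peak gave a share of 7.75% and a median width of 3250 bp, and requiring it 250 bp inside gave 4.82%. These changes follow from how each alternative is built, except the lower share without the 5 chromosomes, whose cause was not tested. With a central 200 bp and flanks of 2 to 5 kb, the cover at lncRNA TSSs exceeded that of the flanks by 0.981 points. These flanks lie farther out, where the cover was lower, 4.62% at 2.5 to 5 kb beside 5.35% at 1 to 2.5 kb. Why the cover falls with distance was not tested. With every transcript start the difference between centre and flanks was 0.159 points, and its interval includes 0 (-0.0328 to 0.351). A further restriction, to annotation levels 1 and 2, left out 0 lncRNA genes, so its values could not move and are not counted. The choice of overlap does not enter the cover, so it gives no value there. No paired analysis was possible because the only file analysed, the peak list, pools both TTD replicates, and signals per replicate were not analysed. Without depth or a score per peak, weak binding below the cutoff cannot be told from none.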
